A study of Mus musculus with 3 samples.

Results

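Malat1 is a long non-coding RNA that stays in the nucleus, and it is described here across the 697 naive CD4 T cells of the series. It is 1 of 14355 genes in the deposited count table, and it was chosen by name because its level varies between cells more than that of most genes at its mean. Its spread between cells, and its relation to RNA content, to mitochondrial and ribosomal RNAs and to CD5, are the quantities for which it was selected. All are therefore given as descriptions, with no test of Malat1. C57BL/6 mice of 8 to 12 weeks, males and females pooled, gave the cells from their spleens and lymph nodes, and the cells were used fresh from the sort. They were live singlets that carried, among the markers of the gate, TCRb, CD4 and CD5 on the surface and lacked CD8, CD25 and CD44. Each cell was sorted into a well of a 384-well plate with its CD5 fluorescence recorded, and its RNA was read by SORT-seq, in which CEL-Seq2 primers wait in the wells. The method counts unique molecular identifiers (UMIs) next to a poly(A) stretch. CD5 orders naive T cells by the strength of their tonic self-ligand signals, and the authors' classes hold 174 CD5 Low, 349 Middle and 174 High cells. The 3 labelled samples are 3 plates with 172, 201 and 324 cells. The labels do not say whether the plates hold different animals, so a spread between plates may be technical.

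Malat1 is among the most abundant polymerase II transcripts of mammalian cells and gathers in nuclear speckles, the bodies where splicing factors are stored. It is transcribed as a single long exon, and its 3′ end is not made by ordinary polyadenylation. RNase P cuts the precursor, which frees a small tRNA-like RNA, and the 3′ end of Malat1 is left as an A-rich tract that folds back on U-rich stretches into a triple helix. It is expressed in nearly all tissues, T cells included.

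The gene (ENSMUSG00000092341.3, lincRNA) lies on chromosome 19, 5795690 to 5802672 on the minus strand of GRCm38, the assembly of mm10, in GENCODE M21. Its full-length transcript Malat1-201 is a single exon of 6983 bases, so every base of that transcript is exonic. A stretch of 172 bases near its 3′ end, chr19:5795928-5796099 on the minus strand, is shown because the library primers carry 24 T bases and because this stretch holds the longest run of A in the transcript. The capitals mark that run of 12 A.
Malat1-201 around the A run: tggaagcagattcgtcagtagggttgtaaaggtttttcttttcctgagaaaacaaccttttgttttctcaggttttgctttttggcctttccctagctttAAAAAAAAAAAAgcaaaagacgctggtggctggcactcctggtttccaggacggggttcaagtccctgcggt
The run ends 298 bases before the annotated end of Malat1-201. The positions used here mark neither the RNase P cut described above nor the A-rich tract that it leaves. They do not say whether the run of 12 A belongs to that tract. The distance from the run to the 3′ end that this cut leaves is therefore not given, and 298 bases is not that distance. A run of 12 or more A on the transcript strand was found in 4.07% of 141767 annotated mouse transcripts, and in 19.5% of the 2550 with 6000 to 8000 bases. The longest run was 7 A in Neat1-201, 5 A in mt-Rnr1 and 7 A in mt-Rnr2. The deposited counts do not record where on the transcript a molecule was primed.

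The sorted cells carried the RNAs of naive CD4 T cells. Cd4 was found in 95.7% of cells (95% exact binomial interval 93.91 to 97.08), Lef1 in 84.79% and Cd3e in 80.63%. Genes of other lineages were less often found: 1.0% of cells held Cd8a and 4.16% Cd8b1 of CD8 T cells, 1.15% Cd79a of B cells, 0.14% Nkg7 of natural killer cells and 0.29% Alas2 of erythroid cells. Cd44, whose protein the gate left out, was found in 9.47% of cells. The myeloid-linked Cst3 was found in 19.94% of cells, and the myeloid genes Lyz2 and Csf1r were not matched in the table. Summed UMIs were 726230, 1113632 and 1404157 in plates 1, 2 and 3, with medians per cell of 3749, 5449 and 3952. Of the 372 well numbers in the cell names, 40 occur in all 3 plates and 245 in exactly 2, because wells are numbered alike on each plate. Plate 2 stands apart from the other plates in 3 ways. Its cells held more UMIs, and Rn45s, named for the 45S ribosomal RNA precursor, took 5.16% of its UMIs against 2.09% in plate 1 and 2.43% in plate 3. Whether Rn45s counts come from precursor or mature rRNA cannot be told from a count table. The Cd5 transcripts of plate 2 also did not follow the recorded CD5 fluorescence. The log2 ratio of the summed Cd5 share, High over Low, was 2.72 for plate 1, 0.12 for plate 2 and 2.75 for plate 3. The fitted CD5 values and the calls of the gene lists are for this reason also given without plate 2.

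Malat1 was abundant, and most cells held it. The table holds 9210 Malat1 UMIs, 0.284% of all UMIs, in 637 of 697 cells. By UMIs, which count 3′ tags and are not divided by length, it ranked 50 of all genes, and 11 once mitochondrial, ribosomal protein and Rn45s genes were set aside. Neat1, the speckle-adjacent paraspeckle RNA that is its neighbour on chromosome 19, had 459 UMIs.

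Malat1 took 0.249% of the summed UMIs of plate 1 (95% exact binomial interval 0.238 to 0.261), 0.378% of plate 2 (0.366 to 0.389) and 0.227% of plate 3 (0.22 to 0.235). The mean was 0.285% ± 0.0812 (SD, n = 3 plates). The interval of plate 2 lies above those of the other plates, and it covers counting error only. Plate 2 is also the plate with the most Rn45s, and mitochondrial rRNA took 3.16% of its UMIs against 2.46% and 2.45%. The part of these differences, and of depth, in the Malat1 level of plate 2 was not tested.

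Single cells spread widely around these values. In plate 1 the Malat1 share of a cell's UMIs ran from 0 over a median of 0.166% to 1.07%. In plate 2 it ran from 0 over 0.293% to 1.08%, and in plate 3 from 0 over 0.17% to 0.828%. The ranges of the 3 plates overlap almost wholly. The middle of the distribution, from the lower to the upper quartile, was 0.0633% to 0.3% in plate 1, 0.132% to 0.505% in plate 2 and 0.0917% to 0.264% in plate 3. Ranked over all plates by Malat1 UMIs before any thinning, the top 110 cells, 15.8% of all, held 50% of these UMIs. Differences in depth between cells, and in level between plates, enter this value.

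**Figure D1:**
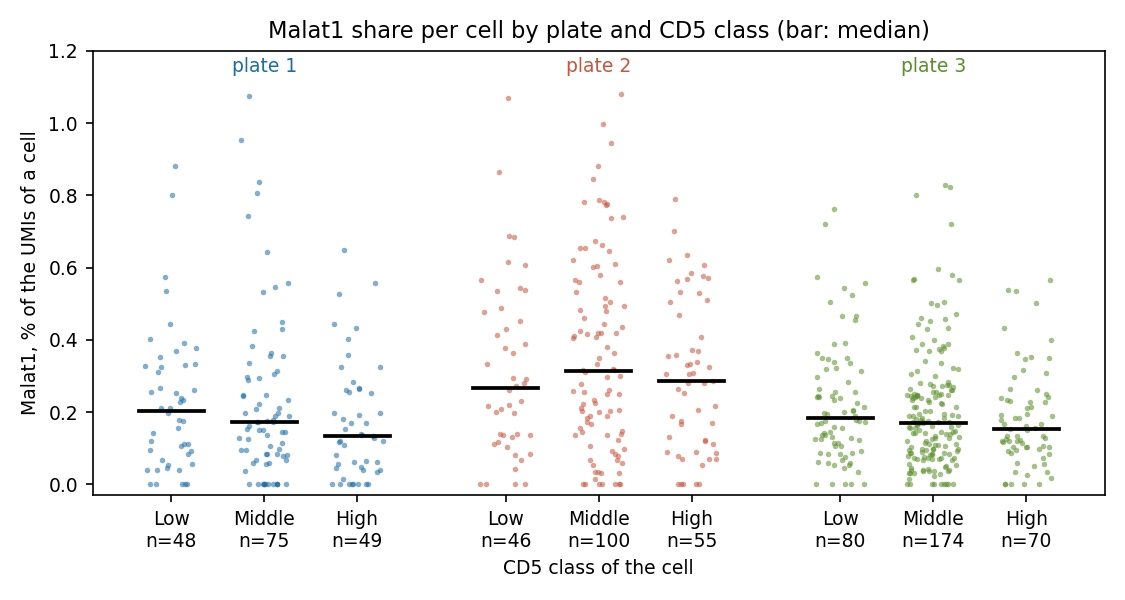
Malat1 share of each cell's UMIs (vertical axis, percent) by plate and CD5 class, with 1 point per cell and a bar at the median. Cells of every class run from 0 upwards, and the medians of plate 2, 0.267% to 0.314%, lie above those of the other plates, 0.135% to 0.205%.

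No Malat1 UMI was counted in 25 cells of plate 1 (14.53%, 95% exact binomial interval 9.63 to 20.7), 16 of plate 2 (7.96%, 4.62 to 12.61) and 19 of plate 3 (5.86%, 3.57 to 9.01). These cells were shallow. Their median total was 1530, 1453 and 1654 UMIs, against 4203, 5837 and 4232 UMIs in the cells with Malat1. The deepest cell without Malat1 held 4302 UMIs in plate 1, 3853 in plate 2 and 2641 in plate 3. A count of 0 there allows a share of up to 0.0697%, 0.0779% and 0.114%. This limit lies below the lower quartile of the same plate in plate 2 and above it in plates 1 and 3. At this depth a cell without Malat1 RNA cannot be told apart from a cell with little of it.

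To set depth aside, each cell was thinned at random to 2118 UMIs, which 557 of 697 cells reached (124, 176 and 257 by plate). The median cell of plates 1, 2 and 3 then held 4, 7 and 4 Malat1 UMIs, and the highest cells held 23, 26 and 18. Cells at 0 after thinning made up 4.84%, 3.98% and 8.95%. For scale, a Poisson distribution with each plate's mean holds 0.617%, 0.0502% and 0.927% at 0.

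The variance of Malat1 between thinned cells was 3.97, 4.3 and 3.19 times its mean in plates 1, 2 and 3, which averages 3.82 ± 0.568 (SD, n = 3 plates), where Poisson sampling gives a variance-to-mean ratio of 1. Since Malat1 was chosen by this spread, its place is a description: percentile 98.2, 98.5 and 98.7 among the 4115 genes that averaged 0.05 UMIs or more, after the dependence on the mean was taken out. Its ratio was 2.08 times the trend at its mean. The coefficient of variation beyond Poisson sampling was 0.702 ± 0.055. Of the 10 genes nearest to it in mean, 7 encode ribosomal proteins, and only A630089N07Rik varied more (12.2 ± 4.19). Cd53, a tetraspanin gene, stood at 2.98 ± 0.783, and H2-D1, a class I histocompatibility gene, at 1.74 ± 0.0562. Neat1 had 1.56 ± 0.224 at a mean of 0.282 UMIs, which is 1.04 times the trend. Leaving out the highest 1% of cells by Malat1 gave 3.46 ± 0.576.

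**Figure D2:**
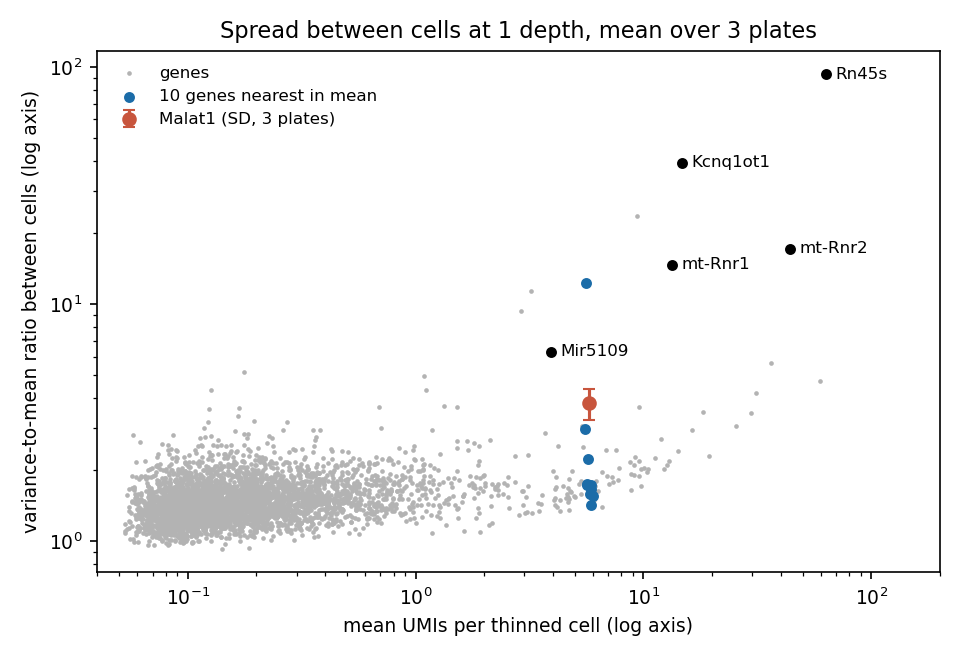
Variance-to-mean ratio between cells (vertical, log axis) against mean UMIs per cell thinned to 1 depth (horizontal, log axis), each the mean over 3 plates, with 1 point per gene. Malat1 (3.82, error bar SD over 3 plates) lies above 9 of its 10 nearest genes in mean and below Rn45s, Kcnq1ot1, mt-Rnr1, mt-Rnr2 and Mir5109.

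The Malat1 share was larger in cells with more UMIs per spike-in UMI. RNA content was taken as the UMIs other than Malat1 per spike-in UMI, spike-ins being a fixed amount of added RNA, and the cells of each plate were ranked in 4 equal bins. From the poorest to the richest bin Malat1 took 0.115%, 0.183%, 0.249% and 0.304% of the summed UMIs in plate 1. It took 0.196%, 0.4%, 0.379% and 0.416% in plate 2, and 0.16%, 0.171%, 0.254% and 0.255% in plate 3. The poorest bin had the lowest share in every plate, and in plate 2 the 3 upper bins were close to each other. The log2 ratio of the share, richest over poorest bin, was 1.41, 1.09 and 0.67, a mean of 1.06 ± 0.37 (SD, n = 3 plates), or 2.08-fold. Over the 1241 genes that averaged 0.5 UMIs or more, the median of this ratio was 0.04, with 90% of genes between -0.54 and 0.79, and Malat1 was 25th from the top. With cells thinned to 1 depth it was 0.91 ± 0.0891, although in plates 1 and 3 only 3 of 43 and 24 of 81 cells of the poorest bin reached that depth. Ranked by spike-in UMIs alone, the ratio was 0.0 ± 0.16, and by UMIs other than Malat1 alone it was 0.97 ± 0.27. These rankings do not part the RNA content of a cell from its depth.

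Malat1 UMIs rose more than in proportion to the other UMIs of a cell. A Poisson regression of Malat1 UMIs on the log of other UMIs was fitted over the cells of each plate, cells at 0 included. Its slope was 1.348, 1.42 and 1.336 (1.368 ± 0.046, SD, n = 3 plates), where a constant share gives 1. Other UMIs mix RNA content with depth, and no spike-in entered this slope. Other nuclear RNAs gave other values. The same log2 ratio was -1.5 ± 0.6 for Kcnq1ot1, an imprinted antisense RNA that coats chromatin, -0.51 ± 0.56 for Neat1, -0.88 ± 1.18 for Tug1 (0.4 in plate 3) and 0.37 ± 0.77 for Xist (1.26 in plate 3). It was -0.02 ± 0.17 for all ribosomal protein genes together and 0.05 ± 0.14 for Actb, the gene of cytoplasmic beta-actin. Mir5109, annotated as a microRNA gene, had 1.59 ± 0.18.

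The share of ribosomal protein mRNAs ran the other way. From the lowest to the highest bin of that share, Malat1 took 0.372%, 0.22%, 0.236% and 0.169% in plate 1. It took 0.435%, 0.421%, 0.404% and 0.243% in plate 2, and 0.246%, 0.273%, 0.25% and 0.148% in plate 3. The bin with the most ribosomal protein mRNA had the least Malat1 in every plate. The log2 ratio, highest over lowest bin, was -1.14, -0.84 and -0.73 (-0.90 ± 0.21, SD, n = 3 plates), beside a median of -0.2 over the 1241 genes, and Malat1 was 45th from the bottom. Shares of 1 total push each other down, so the ratio was also taken among UMIs outside the mitochondrial, ribosomal protein and Rn45s genes, where it was -0.70 ± 0.168.

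The mitochondrial share as a whole showed no common direction. The log2 ratio of Malat1, highest over lowest bin, was -0.5, 0.06 and -0.05 by plate (-0.16 ± 0.3), close to the median gene at -0.15. Without plate 1 it was 0.01. The whole hides opposite parts, a split made after these values were seen. By the share of the 2 mitochondrial rRNAs, mt-Rnr1 and mt-Rnr2, the ratio was 1.06, 1.07 and 1.27 (1.13 ± 0.12, 5th from the top of 1241 genes). By the share of mitochondrial mRNAs, which encode respiratory chain subunits, it was -1.05, -0.71 and -0.57 (-0.77 ± 0.25, 35th from the bottom).

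Rn45s, likewise chosen after its values were seen, gave a ratio of almost the same size in the 3 plates. From the lowest to the highest bin of Rn45s share, Malat1 took 0.131%, 0.266%, 0.252% and 0.312% in plate 1. It took 0.204%, 0.29%, 0.431% and 0.479% in plate 2, and 0.145%, 0.183%, 0.235% and 0.329% in plate 3. The lowest bin had the least Malat1 and the highest bin the most in every plate. The log2 ratios were 1.26, 1.23 and 1.18 (1.22 ± 0.04, SD, n = 3 plates), or 2.33-fold, 6th from the top of 1241 genes. Plate 2, with the most Rn45s, did not differ from the others in this ratio.

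**Figure D3:**
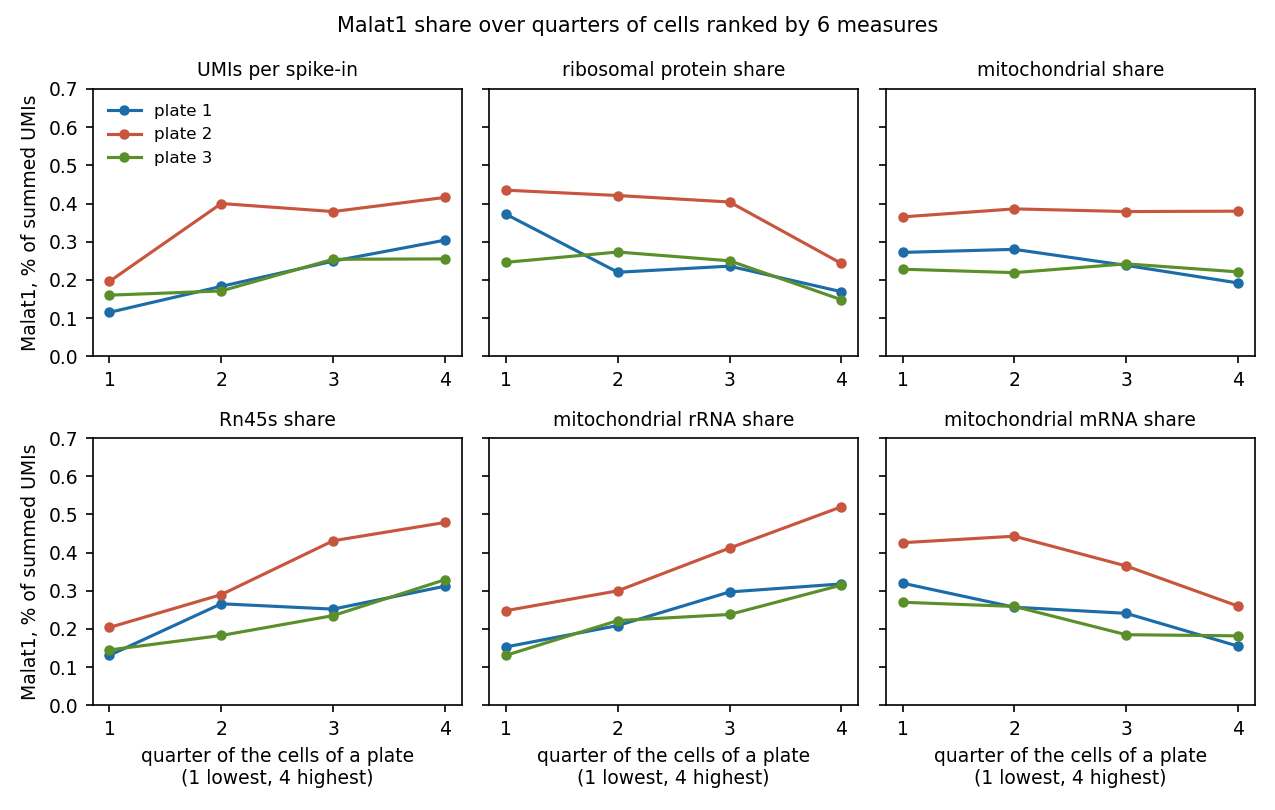
Malat1 share of the summed UMIs (vertical axis, percent) in 4 equal bins of the cells of each plate, ranked by each of 6 measures (horizontal axis, 1 lowest to 4 highest), with 1 line per plate. In all 3 plates bin 4 lies above bin 1 for UMIs per spike-in, Rn45s and mitochondrial rRNA and below it for ribosomal protein and mitochondrial mRNA, with no common direction for the whole mitochondrial share and some lines not steady in between.

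Single cells scattered widely around these relations. The Spearman correlation of the Malat1 share with UMIs per spike-in was 0.47, 0.39 and 0.28 in plates 1, 2 and 3 (n = 172, 201 and 324 cells). With the ribosomal protein share it was -0.35, -0.31 and -0.19, and with the mitochondrial share -0.08, -0.03 and 0.02. With the Rn45s share it was 0.32, 0.5 and 0.41, and with the mitochondrial rRNA share 0.4, 0.4 and 0.41. The cells of a plate share a library and differ in depth, and each share has the same total below it, so these values describe the cells and carry no p.

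The genes most like Malat1 over cells were Rn45s, the mitochondrial rRNAs and Mir5109. Likeness is the Spearman correlation of UMIs over the thinned cells of a plate, averaged over the 3 plates, for the 403 genes that averaged 0.5 UMIs or more in each. Rn45s came first with 0.38 (0.36, 0.34 and 0.44 by plate), and Mir5109 had 0.34 (0.45, 0.21 and 0.35). Between them stood both mitochondrial rRNAs, picked out beyond the naming rule once their values were known, mt-Rnr2 with 0.37 (0.37, 0.36 and 0.38) and mt-Rnr1 with 0.35 (0.34, 0.38 and 0.32). These 4 also went with each other, at 0.70 for mt-Rnr1 with mt-Rnr2 and 0.63 for Mir5109 with Rn45s. Rn45s stood at 0.49 with mt-Rnr1 and 0.44 with mt-Rnr2, and Mir5109 at 0.34 and 0.31 with the same RNAs. Whether Mir5109 and Rn45s share reads cannot be told from a count table, so their counts are uncertain as separate genes.

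After these 4 the values dropped. Fyb, which encodes an adaptor of T cell receptor signalling, had 0.17 and Smc4, a condensin subunit gene, 0.15. Zc3h11a, which encodes a zinc finger protein of mRNA export, had 0.14. Rbm25, a splicing factor gene, and Foxp1, a transcription factor gene of T cell quiescence, had 0.13 each, as did the predicted gene Gm10845. These 6 were positive in all 3 plates but weak, with Fyb at 0.06 and Foxp1 at 0.03 in plate 2, and such values in sparse counts are no finding.

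At the other end stood small cytoplasmic and surface proteins' mRNAs, also weakly. Tmsb4x, which encodes the actin-binding thymosin beta-4, had -0.19 and B2m, the class I light chain gene, -0.19. Eef1a1, a translation elongation factor gene, Tmsb10 and Slc25a5, the gene of a mitochondrial ADP/ATP carrier, had -0.15 each. Thy1 had -0.14, Tpt1 -0.12 and Cd52 -0.11. As a group, 72 ribosomal protein genes had a median of -0.08, with 45 negative and 0 positive in all 3 plates, beside a median of -0.01, 107 negative and 61 positive over all 403 genes. The 11 mitochondrial mRNAs had a median of -0.12, with 7 negative and 2 positive in all plates. The 14 genes of speckle and splicing proteins had a median of 0.07, with 6 positive and 1 negative in all plates. Kcnq1ot1 had -0.02. Neat1 and Xist, at 0.05 each, were too sparse to be ranked among the 403 genes, and sparse counts hold such values near 0.

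**Figure D4:**
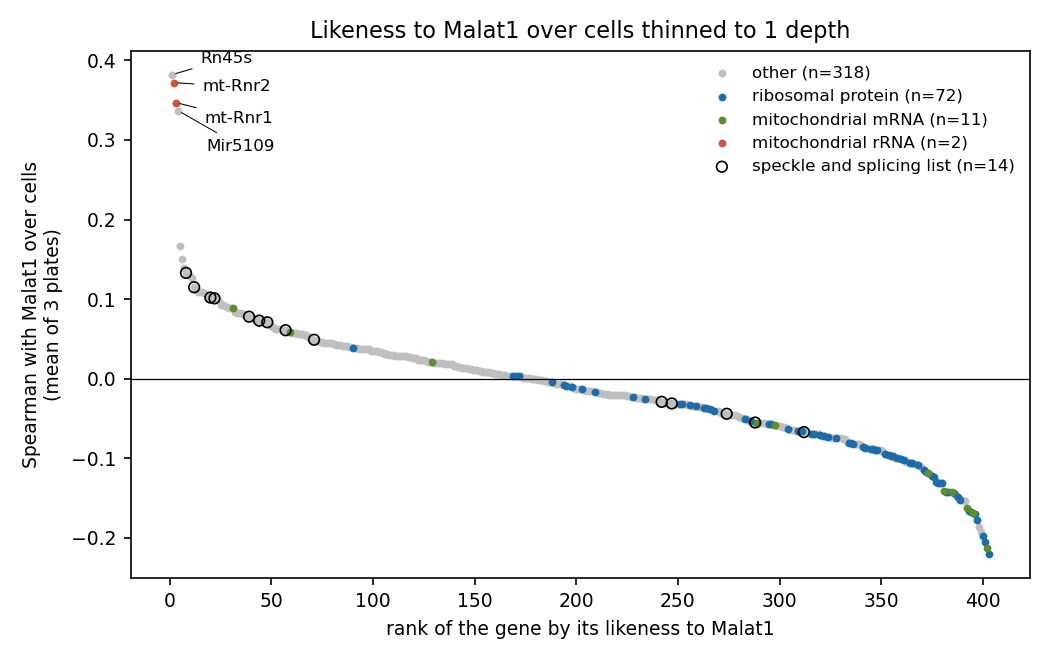
Likeness to Malat1 (vertical axis, Spearman correlation over thinned cells, mean of 3 plates) of 403 genes in rank order (horizontal axis), coloured by gene group, with circles on the speckle and splicing list. Rn45s, mt-Rnr2, mt-Rnr1 and Mir5109 stand at 0.34 to 0.38 and the next gene at 0.17, with ribosomal protein genes mostly below 0.

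The same cells were also split by both measures at once. This split was made after these values were seen, with 4 genes picked as the most like Malat1, so it describes how the values lie and is no separate support. The cells of a plate were parted at the median of UMIs per spike-in, and each part at the median of the summed share of Rn45s, mt-Rnr1, mt-Rnr2 and Mir5109. Among the RNA-poor cells Malat1 took 0.107% below and 0.212% above the second median in plate 1, 0.205% and 0.433% in plate 2, and 0.111% and 0.223% in plate 3. Among the RNA-rich cells it took 0.216% and 0.341%, 0.282% and 0.497%, and 0.167% and 0.327%. The log2 difference by the summed share of these 4 genes was 1.02 ± 0.05 in RNA-poor and 0.82 ± 0.16 in RNA-rich cells (SD, n = 3 plates). By RNA content it was 0.69 ± 0.29 at low and 0.48 ± 0.25 at high summed share of the 4 genes. RNA content was not equal between the parts compared: among RNA-poor cells its median was 1.69 below and 2.15 above the second median in plate 1, 3.12 and 3.95 in plate 2, and 1.82 and 1.88 in plate 3. Among RNA-rich cells it was 5.66 and 6.3, 7.33 and 8.08, and 5.06 and 4.99 UMIs per spike-in.

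In cells thinned to 1 depth and ranked by that summed share, the mean went from 2.52 to 7.16 Malat1 UMIs between the lowest and the highest bin of plate 1. It went from 4.23 to 9.41 in plate 2 and from 2.58 to 6.88 in plate 3. Neat1 went from 0.0968 to 0.323, from 0.659 to 0.205 and from 0.262 to 0.234 UMIs, with no common direction. Likeness within the RNA-poor and RNA-rich cells, averaged, was 0.38 for Rn45s, 0.40 for mt-Rnr2, 0.38 for mt-Rnr1 and 0.32 for Mir5109. Median RNA content also differed between these bins, at 4.21 and 5.04 UMIs per spike-in in plate 1, 4.66 and 6.86 in plate 2, and 4.02 and 3.31 in plate 3, and its part there was not tested.

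The Malat1 share of summed UMIs was lower in High than in Low cells in all 3 plates. In plate 1 Malat1 took 0.253% of summed UMIs in the Low, 0.253% in the Middle and 0.24% in the High class. In plate 2 it took 0.372%, 0.402% and 0.334%, and in plate 3 0.247%, 0.228% and 0.202%. High was the lowest class in each plate. Means were 0.291% ± 0.0705 in Low, 0.294% ± 0.0941 in Middle and 0.259% ± 0.068 in High (SD, n = 3 plates). These SDs include the differences in level between plates, which the classes of a plate share. Taken within each plate, the log2 ratio, High over Low, was -0.08, -0.16 and -0.29, a mean of -0.17 ± 0.11 (SD, n = 3 plates). In edgeR's quasi-likelihood fit over all genes it was -0.17 (SE 0.08). In that fit 9 of 4813 genes passed (0.187%), 8 higher and 1 lower in High. Malat1 was not among them, from which nothing is read, since its relation to CD5 is among the quantities it was chosen with.

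Without plate 2 the edgeR value was -0.16 (SE 0.09). By the median share per cell the ratio was -0.59, 0.09 and -0.26, a mean of -0.26 ± 0.34, lower in 2 of 3 plates. Malat1 was found in 91.95% of Low cells (95% exact binomial interval 86.87 to 95.53), 91.98% of Middle (88.61 to 94.6) and 89.66% of High cells (84.14 to 93.75). These intervals pool the cells of 3 plates and cover counting error only. They leave out differences between plates and in depth, so the classes are not compared by them. Other quantities moved with the classes. The median total was 4200 UMIs in Low and 2527 in High cells of plate 1, 4987 and 5401 in plate 2, and 4604 and 3688 in plate 3. The log2 ratio of Rn45s, High over Low, was -0.05, -0.25 and -0.14. Their part in the Malat1 difference was not tested.

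Over the whole range of CD5 the result was of the same kind. In 4 bins of cells by CD5, Malat1 took 0.255%, 0.278%, 0.215% and 0.251% in plate 1, 0.39%, 0.396%, 0.377% and 0.342% in plate 2, and 0.244%, 0.247%, 0.195% and 0.223% in plate 3. Both lower bins lay above both upper bins in each plate, by little, and the lowest bin was the third in plates 1 and 3 and the fourth in plate 2. The slope was -0.07 on the log2 scale per doubling of CD5 (SE 0.04), and -0.05 (SE 0.05) without plate 2. In that edgeR fit over 3 plates 6 of 5019 genes passed (0.12%), without Malat1. Over cells the Spearman correlation with CD5 was -0.15, -0.02 and -0.07.

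Genes linked to Malat1 by place or function showed few calls in the same edgeR comparison of High with Low. Of 17 listed nuclear long RNAs 4 were abundant enough to test, and 1 rose: Kcnq1ot1 (log2 0.61, SE 0.10, adjusted p = 0.000505). It took 18.1% of the UMIs of 1 cell, and without that cell 1 gene of the whole table passed in place of 9. The value of Kcnq1ot1 itself without that cell was not kept, so how far its call rests on 1 cell is not known here. By plate its log2 ratio was 0.76, 0.04 and 0.97. Xist, the RNA of X inactivation, had -0.61 (SE 0.26) and Tug1 0.19 (SE 0.30), and neither passed. Kcnq1ot1 and Xist were the 2 of these 4 at an unadjusted p under 0.05. Of 37 speckle and splicing genes 35 were tested, 0 rose and 0 fell, and the median was -0.08 with 24 negative, beside a median of 0.0 with 2393 negative of all 4813 genes. The lowest p belonged to Tra2b (-0.78, SE 0.25, adjusted p = 0.495), a splicing regulator gene. Srsf2 (-0.38, SE 0.15) and Srsf5 (-0.39, SE 0.16) encode serine/arginine-rich splicing factors, and Clk1 (-0.43, SE 0.18) a kinase of such factors. None of these passed in edgeR, and DESeq2's Wald test passed 0 of all genes. These 4 of 35 were the list's genes at an unadjusted p under 0.05, beside 297 of all 4813 (6.17%), and without plate 2 it was 1 of 35.

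Of 15 snoRNA host genes 9 were tested and 0 passed (0 at an unadjusted p under 0.05), with a median of 0.13, or -0.26 without plate 2. The most abundant, Gas5, had -0.31 (SE 0.17). Of 14 factors that cut or bind the 3′ end of Malat1 only 2 RNase P subunit genes were tested, Rpp21 (0.14, SE 0.41) and Pop5 (-0.15, SE 0.45), and 0 passed at either threshold. Of the 20 genes of the count table that the annotation places within 250 kb of Malat1, 9 were tested and 0 passed, with 1, Dpf2, at an unadjusted p under 0.05. Neat1, 22036 bases away, had 0.02 (SE 0.26). Frmd8 had 0.42 (SE 0.24), and Dpf2, the gene of a chromatin remodelling subunit, -0.78 (SE 0.35). Without plate 2 the same list member, Kcnq1ot1, was the only one of these 5 lists to pass. Their medians, 0.02 for the neighbours and -0.01 for the 3′ end factors, lie near that of all genes, and these lists were chosen with earlier results of the same cells known.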

How the data were processed

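The deposited gene table holds expected counts, which the authors estimated per gene and cell from UMIs and did not scale between cells. The CD5 values are a fluorescence signal per cell, deposited with no scaling between plates stated. Per the submitters' processing notes, reads were mapped with BWA to mm10. The BWA version, the counting annotation, the use of strand and the rule for keeping cells are not given in the sources used here.

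Malat1 and the gene lists were chosen with earlier results of these data known. A cell's plate comes from its name. Counts were summed per plate and CD5 class (9 sums) or per plate and 4 CD5 bins (12 sums), rounded to whole numbers and tested with edgeR 4.0.16 (quasi-likelihood, TMM, filterByExpr, plate as a block since a plate is 1 library, two-sided, adjusted p under 0.05 over all genes) in R 4.3.3. Spike-ins entered no fit. With 4 residual against 37.9 prior degrees of freedom in the class fit, p-values rest mostly on the spread shared by all genes, and measure the spread between sums within these plates. The planned tests of Malat1 on CD5 are given as fitted values only, because CD5 is named in the rule that chose it. Bins by RNA measures used totals without Malat1. Thinning used 1 seeded draw to the 20% quantile of totals. Doublets were not called beyond the authors' singlet gate. Binomial intervals are exact at 95%, with 3 counts as the upper limit for a 0. Fits were tested on simulated data with known changes.

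The naming rule takes the 8 genes most and the 8 least like Malat1 with 1 sign in 3 plates (mitochondrial and ribosomal protein genes as groups), the 10 genes nearest in mean, and up to 6 tested members of each list by p. One further marker gene of the naive state is not reported here. Sequence and positions come from GENCODE M21. DESeq2 1.42.0 was an alternative. Python 3.11.15, numpy 2.4.6, pandas 2.3.3, scipy 1.17.1, statsmodels 0.14.6 and matplotlib 3.10.9 were used.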

Additional observations from a re-analysis of the deposited data

How the results depend on the processing

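The log2 value of Malat1, High minus Low, was -0.23 to -0.11 over the 11 alternatives run and its slope on CD5 -0.09 to -0.05 over 12. With no replicate block for the plate the log2 value was -0.17 (SE 0.219). The number of genes called between classes was 9, against 0 by DESeq2's Wald test (147 below 0.05 before adjustment), 0 with no replicate block (198), 16 with no filter on low counts, 1 with thinned cells, 1 without the cell richest in Kcnq1ot1, and 0 to 20 when a plate was left out (0 without plate 1 or 3, 20 without plate 2). For the slope it was 6, against 3 by the Wald test, 10 with no filter, 0 with no replicate block, 1 without that cell, 11 with 3 bins per plate, and 0 to 14 when a plate was left out (14 without plate 2). The cause of these changes was not tested. The variance-to-mean ratio, 3.82 in thinned cells, was 15.4 with no thinning and 5.9 at 4241 UMIs, as it grows with depth by construction. The median share, 0.21% as a mean over plates, was 0.327% of UMIs outside the mitochondrial, ribosomal protein and Rn45s genes, or 0.908 per 100 spike-in UMIs. The log2 ratio by RNA content, 1.06, was 0.56 with 2 bins in place of 4 and 3.39 per spike-in UMI, which adds the change in RNA content itself. By ribosomal protein share 2 bins gave -0.41. By mitochondrial share the ratio of -0.16 reversed to 0.01 without replicate 1 (range -0.27 to 0.01). The median share by CD5 class gave -0.42 to -0.09 when a plate was left out, an alternative chosen after seeing the data. Depth limits what can be said of cells at 0 and of genes under 0.5 UMIs per cell, and 3 plates limit every SD.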
